A study of Homo sapiens with 4 samples.

Results

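The proteasome is the protease complex that degrades ubiquitin-tagged proteins in the cytosol and nucleus. Its barrel-shaped 20S core is built of alpha rings, which gate the entrance, and beta rings, which hold the proteolytic sites, and the 19S regulator at either end recognises, unfolds and feeds in the substrate. Interferon-induced catalytic subunits can replace the constitutive ones to form the immunoproteasome, which changes the peptides made for antigen presentation. Genes were taken as proteasome genes when their symbol was PSM followed by a letter from A to G and a number, pseudogenes excluded. The expression table held 44 of them among 12033 genes, and 40 were among the 7596 genes that averaged 2 or more RPKM over the libraries, on which ratios were compared. RPKM are reads per kilobase of transcript, scaled to a fixed number of mapped reads, so levels can be compared between genes.

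The cells were BJ-indRASG12V, an hTERT-immortalized line of human fibroblasts. Adding 4-OHT (4-hydroxytamoxifen) turns on oncogenic RAS in them and drives oncogene-induced senescence. All 4 libraries came from cells given 4-OHT for 14 days, so no uninduced cells enter any comparison. The conditions were sgRNA-AP1-69 and sgRNA-AP1-71, which are 2 CRISPR guides against the AP-1 site of the enhancer EnhAP1-OIS1, sgRNA-FOXF1 against the FOXF1 gene, and the non-targeting control sgRNA-NT. Each condition was represented by 1 library of transduced cells, no clone was named in the sources, and the labels did not say whether cultures were separate. No value below therefore has a replicate error of its own, and the only spread available was that between the guides. The study asked whether cutting the enhancer and cutting FOXF1 leave similar expression programmes in RAS-induced cells.

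FOXF1 had 11.1 RPKM for sgRNA-AP1-69, 7.8 for sgRNA-AP1-71 and 25 for sgRNA-FOXF1, against 29.6 with sgRNA-NT. Indels in a coding sequence need not lower its RNA, so the level with sgRNA-FOXF1 is no check of that label. HRAS had 446.4, 427.4 and 707.6 RPKM in the same order of targeted libraries, against 829.4 with sgRNA-NT, and the part of this in the results below was not tested. Of 7 fibroblast markers 6 were compared, led by VIM, and FAP stood at the floor of 1 RPKM in every library. The fibroblast markers summed to 5127, 5317 and 5026 RPKM in the targeted libraries, against 3519 with sgRNA-NT, most of it from VIM and S100A4. The collagens went the other way with the guides: COL1A1 had 53.7, 42.5 and 115.6 RPKM, against 120.6, and COL1A2 had 189.4, 167.1 and 292.3 RPKM, against 287.0. The median log2 ratio of the 6 was -0.08, -0.04 and 0.23. Of 4 epithelial markers 2, KRT8 and KRT18, were in the expression table, and EPCAM and CDH1 were not. The 2 summed to 144.1, 83.6 and 137.7 RPKM, against 80.5. Of 4 white-cell markers 1, CD14, was in it, with 7.9, 8.5 and 6.0 RPKM, against 9.8, and of 3 endothelial markers 0 were. In bulk RNA a change in the share of a cell type and a change in RNA per cell cannot be told apart. Across 7566 compared genes with an annotated transcript, the Spearman correlation between transcript length and the log2 ratio to sgRNA-NT was -0.50 for sgRNA-AP1-69, -0.44 for sgRNA-AP1-71 and -0.45 for sgRNA-FOXF1. These are correlations over genes of the same libraries, which are not independent replicates, and the 3 ratios share the sgRNA-NT library. The 13 mitochondrially encoded transcripts had median log2 ratios of -1.02, -1.54 and -0.77.

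Most proteasome genes differed by less than 1.5-fold from sgRNA-NT in each targeted library, and the genes past it were mainly those of sgRNA-AP1-71. With sgRNA-AP1-69, 2 of 40 (5.0%) were at least 1.5-fold higher than with sgRNA-NT, where 8.08% of all compared genes were. With sgRNA-AP1-71 the count was 11 of 40 (27.5%) against a background of 14.0%, and with sgRNA-FOXF1 it was 4 of 40 (10.0%) against 11.5%. At least 1.5-fold lower were 0 members with sgRNA-AP1-69 (background 9.86%), 0 with sgRNA-AP1-71 (14.6%) and 1, PSME4, with sgRNA-FOXF1 (13.1%). The share counted as higher thus exceeded the background only with sgRNA-AP1-71, and 27 members passed this size of difference in none of the targeted libraries. At 2-fold, 0, 3 and 0 members were higher in these libraries (backgrounds 1.34%, 3.8% and 3.2%), the 3 being PSMB8, PSMB10 and PSME2, and 0 were lower with sgRNA-FOXF1 (4.96%). The plot of ratios by role shows the same points. All of these counts are uncorrected for transcript length. Corrected for it, 6 of 40 members were at least 1.5-fold higher with sgRNA-AP1-71, nearer to the background of 11.5%.

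Before correction for transcript length, small positive ratios were more common among proteasome genes than among all compared genes, mainly with the enhancer guides. The ratio was above 0 on the log2 scale for 34 of 40 members (85.0%) with sgRNA-AP1-69, where 55.0% of all genes were above 0. With sgRNA-AP1-71 it was above 0 for 36 (90.0%, background 55.1%), and with sgRNA-FOXF1 for 24 (60.0%, background 53.9%). The median member log2 ratio was 0.20, 0.39 and 0.07, beside 0.07, 0.08 and 0.05 over all compared genes. Corrected for transcript length it was 0.0006, 0.16 and -0.09. Because all 3 ratios have the sgRNA-NT library as denominator, an unusual value in that library would enter each of them.

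**Figure D1:**
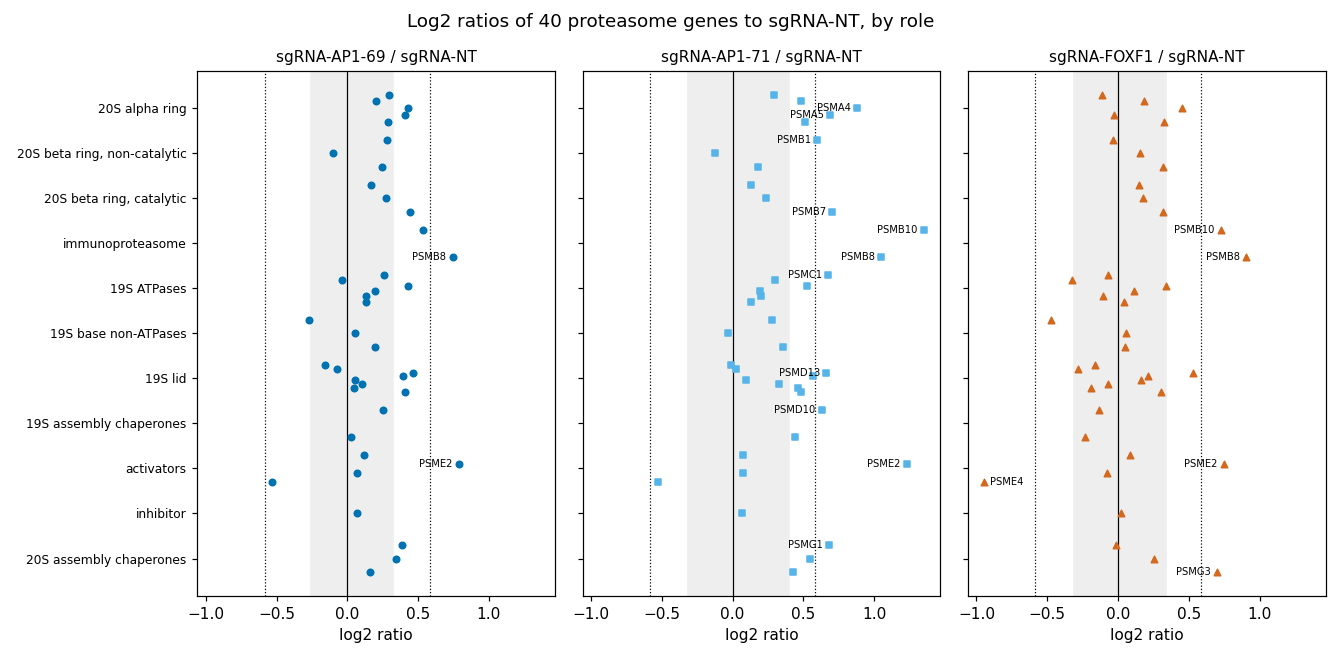
Log2 ratio to sgRNA-NT (horizontal axis) of the 40 compared proteasome genes by role, with 1 panel per targeted library. Each point is a gene, dotted lines mark 1.5-fold, the grey band holds the middle 50% of all compared genes, and genes past 1.5-fold are named: 2 for sgRNA-AP1-69, 11 for sgRNA-AP1-71 and 5 for sgRNA-FOXF1.

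The immunoproteasome and one subunit of its activator had the largest ratios with sgRNA-AP1-71 before any correction for transcript length, after which PSMA4 had the highest in each targeted library. PSMB8 encodes the interferon-inducible subunit that takes the place of PSMB5. It lies in the major histocompatibility complex, on the minus strand at chr6:32808494-32812456 (GRCh37). PSMB8 had 31.0 RPKM for sgRNA-AP1-69, 38.3 for sgRNA-AP1-71 and 34.6 for sgRNA-FOXF1, against 18.5 with sgRNA-NT. It was higher in each targeted library, by 1.68-, 2.07- and 1.87-fold.

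PSME2 encodes PA28 beta, which with PA28 alpha (PSME1) forms an interferon-inducible ring that opens the core without ubiquitin. The gene lies at chr14:24612571-24616779 on the minus strand (GRCh37). PSME2 had 55.6 RPKM for sgRNA-AP1-69, 75.6 for sgRNA-AP1-71 and 54.1 for sgRNA-FOXF1, against 32.2 with sgRNA-NT. That is 1.73-, 2.35- and 1.68-fold higher, and it was the member with the largest ratio with sgRNA-AP1-69, uncorrected for length. Its partner PSME1 had 55.4, 53.8 and 54.3 RPKM in those libraries, against 51.1 with sgRNA-NT, so the partners were not alike in size of ratio.

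PSMB10 encodes the inducible subunit that replaces PSMB7. It had 4.2 RPKM for sgRNA-AP1-69, 7.4 for sgRNA-AP1-71 and 4.8 for sgRNA-FOXF1, against 2.9 with sgRNA-NT. The log2 ratios of 0.53, 1.35 and 0.73 put it past 1.5-fold with sgRNA-AP1-71 and sgRNA-FOXF1 only. At values this low, rounding to 1 decimal alone allows 0.49 to 0.58 with sgRNA-AP1-69. PSMB10 was also the single member at least 1.5-fold higher with sgRNA-AP1-71 than with sgRNA-AP1-69 (1 of 40, background 2.38%). The third inducible subunit, PSMB9, was not analysed here, nor were PSMB3, PSMA8 and the thymus-specific PSMB11.

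The constitutive catalytic subunits were among the highest-expressed members and moved less. PSMB5, the chymotrypsin-like subunit, had 155.3, 151.4 and 153.0 RPKM in the sgRNA-AP1-69, sgRNA-AP1-71 and sgRNA-FOXF1 libraries, against 138.2 with sgRNA-NT. PSMB6, the caspase-like subunit, had 144.0, 140.0 and 134.5 RPKM, against 119.0 with sgRNA-NT. Neither passed 1.5-fold in any library. PSMB7, the trypsin-like subunit, had 167.5, 200.4 and 153.5 RPKM, against 123.2 with sgRNA-NT, and passed 1.5-fold with sgRNA-AP1-71 at 1.63-fold.

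Set against its constitutive counterpart within the same library, PSMB8 was 19.96% of PSMB5 for sgRNA-AP1-69, 25.3% for sgRNA-AP1-71 and 22.6% for sgRNA-FOXF1, against 13.4% with sgRNA-NT. PSMB10 was 2.51%, 3.69% and 3.13% of PSMB7, against 2.35% with sgRNA-NT. PSME2 was 100.4%, 140.5% and 99.6% of PSME1, against 63.0% with sgRNA-NT. The PSMB8 and PSME2 shares were thus higher in each targeted library by 1.49 to 2.23 times, and the PSMB10 share with sgRNA-AP1-69 by 1.07 times. With 1 RPKM added to each value the last becomes 0.98 of sgRNA-NT. These ratios compare RNA levels per transcript length, not protein or assembled complexes.

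**Figure D2:**
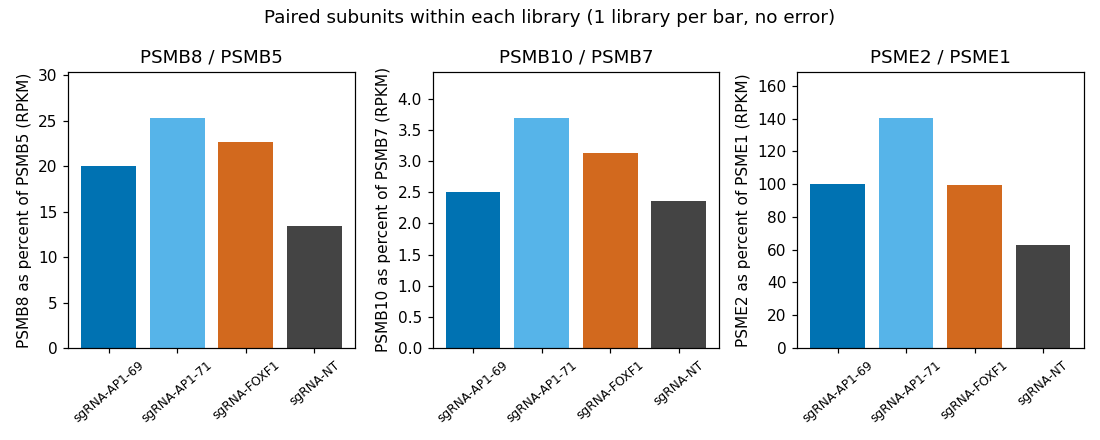
PSMB8 as percent of PSMB5, PSMB10 as percent of PSMB7 and PSME2 as percent of PSME1, from RPKM values within each of the 4 libraries (1 bar per library, so no error bars). The sgRNA-NT bar is the lowest in each panel, at 13.4%, 2.35% and 63.0%, and sgRNA-AP1-71 is the highest.

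The start regions of these genes were examined because PSMB8, PSMB10 and PSME2 are known interferon targets. RefSeq promoters (250 bases before to 50 after a start, GRCh38.p14) were matched for 38 of the 44 members, with 47 start regions. The interferon-stimulated response element core, which is GAAA, any 2 bases and GAAA again, was searched on both strands after the expression values had been seen. It was in 7 of 47 (14.89%), beside 3.57% of 35116 promoters of all genes. The 3 matches lying wholly upstream and identical in their letters are shown with the core in capitals, 5′ to 3′ along the gene, at chr16:67936852-67936881 (minus), chr14:24146619-24146648 (minus) and chr6:3258904-3258933 (plus).
PSMB10: gggtaaaggcGAAAGCGAAAgcaggaagta
PSME2: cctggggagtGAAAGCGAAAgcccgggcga
PSMG4: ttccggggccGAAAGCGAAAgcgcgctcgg
PSMB8 and PSME1 held the same core on the other strand, TTTCGCTTTC, beginning at -4 and 5 from the start, and PSMA4 and PSMB4 held GAAAATGAAA and GAAAAAGAAA. Genes with the motif therefore included PSMB8 and PSME2, which were past 1.5-fold in each targeted library, and PSMB4 and PSME1, which were past it in none. A match is a string of letters and does not show that a factor was bound.

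The genes through which interferon acts on these subunits were described from a list of 8, of which 7 were compared. None was at least 1.5-fold higher in any targeted library (backgrounds 8.08%, 14.0% and 11.5%). TAP1, a peptide transporter subunit whose gene lies beside PSMB9, had 26.2, 29.5 and 25.9 RPKM in the sgRNA-AP1-69, sgRNA-AP1-71 and sgRNA-FOXF1 libraries, against 21.3 with sgRNA-NT. IRF1, a transcription factor that induces immunoproteasome genes, had 3.5, 5.3 and 4.7 RPKM, against 3.6 with sgRNA-NT. The light chain of class I molecules, B2M, had 92.8, 120.8 and 111.9 RPKM, against 114.0, and ERAP1, a peptide-trimming enzyme, was past 1.5-fold lower with sgRNA-AP1-69 and sgRNA-FOXF1 (backgrounds 9.86% and 13.1%). The median log2 ratio of the 7 genes was -0.04, 0.19 and 0.07, so the list did not follow PSMB8 and PSME2 in size.

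In the alpha ring of the 20S core, which gates entry of the substrate, the 5 compared genes had median log2 ratios of 0.29, 0.51 and 0.18 in the sgRNA-AP1-69, sgRNA-AP1-71 and sgRNA-FOXF1 libraries. PSMA4 had 12.8, 17.5 and 13.0 RPKM in these libraries, against 9.5 with sgRNA-NT, and passed 1.5-fold with sgRNA-AP1-71 at 1.84-fold. PSMA5 had 31.6, 38.4 and 23.3 RPKM, against 23.8 with sgRNA-NT. It passed 1.5-fold with sgRNA-AP1-71 (1.61-fold), while its level with sgRNA-FOXF1 was close to that of sgRNA-NT. PSMA7, the highest of the ring, had 164.1, 191.4 and 168.7 RPKM, against 134.5 with sgRNA-NT, and stayed under 1.5-fold. PSMA1 and PSMA3 did so too.

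The structural subunits of the beta ring differed among themselves. PSMB1 had 85.4, 106.6 and 68.8 RPKM in the sgRNA-AP1-69, sgRNA-AP1-71 and sgRNA-FOXF1 libraries, against 70.4 with sgRNA-NT, and was just past 1.5-fold with sgRNA-AP1-71 at 1.51-fold. PSMB2 had 29.9, 29.4 and 35.7 RPKM, against 32.0 with sgRNA-NT, and PSMB4, the highest of the 3, had 148.2, 141.7 and 156.2 RPKM, against 125.3. PSMB2 was lower with both enhancer guides and higher with sgRNA-FOXF1, always within 1.5-fold of sgRNA-NT. Over the 11 compared constitutive 20S genes the median log2 ratio was 0.28, 0.48 and 0.18, with 4 of them past 1.5-fold higher with sgRNA-AP1-71 and 0 in the other targeted libraries.

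Among the 19S ATPases, which form the ring that unfolds substrates, PSMC1 had 12.1, 16.1 and 9.6 RPKM in the sgRNA-AP1-69, sgRNA-AP1-71 and sgRNA-FOXF1 libraries, against 10.1 with sgRNA-NT. It was the only one of the 6 past 1.5-fold, with sgRNA-AP1-71 (1.59-fold). Of the bases of its canonical transcript 83.2% are also covered on the opposite strand by exons of NRDE2, and whether reads were counted by strand is not given in the sources used here. PSMC3, the highest ATPase, had 119.0, 127.3 and 112.2 RPKM, against 88.5 with sgRNA-NT, and PSMC6, the lowest, had 3.5, 3.5 and 3.3 RPKM, against 3.2. Levels within this ring, whose subunits assemble in equal numbers, thus differed far more between genes than between libraries.

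The other base subunits had no member past 1.5-fold. PSMD2, the scaffold on which ubiquitin shuttles dock, was the highest member of all in the sgRNA-NT library. It had 198.1, 186.7 and 198.1 RPKM in the sgRNA-AP1-69, sgRNA-AP1-71 and sgRNA-FOXF1 libraries, against 190.8 with sgRNA-NT. PSMD1, the other large scaffold, had 19.3, 28.2 and 16.8 RPKM, against 23.3 with sgRNA-NT. The guides fell on opposite sides of sgRNA-NT for PSMD1, so the spread between them (0.55 on the log2 scale) exceeded the difference of their mean from the control. In the lid, which carries the deubiquitinase PSMD14, PSMD13 alone of 8 passed 1.5-fold.

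PSMD13 had 45.9, 52.6 and 48.0 RPKM in the sgRNA-AP1-69, sgRNA-AP1-71 and sgRNA-FOXF1 libraries, against 33.3 with sgRNA-NT, which was 1.58-fold higher with sgRNA-AP1-71. PSMD8, the highest lid gene, had 116.6, 122.7 and 108.6 RPKM, against 88.0, and PSMD6, the lowest, had 7.1, 8.3 and 6.3 RPKM, against 6.6. Over the 17 subunits of the 19S regulator the median log2 ratio was 0.13, 0.30 and 0.04. Uncorrected for transcript length, these medians were lower than those of the constitutive 20S genes in each targeted library. Corrected for length, the order was reversed with both enhancer guides and kept only with sgRNA-FOXF1. That difference between sub-complexes was not tested.

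Assembly factors gave values of similar size. PSMD10 (gankyrin), a chaperone of the ATPase ring, had 16.1, 20.9 and 12.3 RPKM in the sgRNA-AP1-69, sgRNA-AP1-71 and sgRNA-FOXF1 libraries, against 13.5 with sgRNA-NT. PSMG1, which with PSMG2 guides alpha-ring formation, had 14.4, 17.6 and 10.9 RPKM, against 11.0 with sgRNA-NT. Each of these was past 1.5-fold with sgRNA-AP1-71 (1.55- and 1.60-fold) and slightly under sgRNA-NT with sgRNA-FOXF1. PSMG3, a partner of PSMG4 in the same process, had 9.5, 11.4 and 13.8 RPKM, against 8.5 with sgRNA-NT. It was past 1.5-fold only with sgRNA-FOXF1 (1.62-fold), the one member higher by this much in that library alone. PSMG4, which did not reach the expression minimum, had 1.7, 1.7 and 1.8 RPKM, against 1.2.

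The remaining activators and the inhibitor were closer to the control, with one exception. PSME3 (PA28 gamma), a nuclear activator, had 68.0, 68.0 and 61.5 RPKM in the sgRNA-AP1-69, sgRNA-AP1-71 and sgRNA-FOXF1 libraries, against 64.8 with sgRNA-NT. PSMF1 (PI31), an inhibitor of the core in vitro, had 26.9, 26.8 and 26.0 RPKM, against 25.6 with sgRNA-NT. PSME4 (PA200), an activator linked to histone degradation, had 3.6, 3.6 and 2.7 RPKM, against 5.2 with sgRNA-NT. Its log2 ratios of -0.53, -0.53 and -0.95 were the lowest of all members in each targeted library, uncorrected for transcript length. Corrected for length they were -0.19, -0.12 and -0.54, the lowest of all members only with sgRNA-FOXF1. Centred on the median of all genes, PSME4 was also past 1.5-fold lower for each guide, as 1 of 40 members (backgrounds 12.0% and 17.1%), and corrected for GC content it was so for sgRNA-AP1-71 (14.8%) and sgRNA-FOXF1 (11.9%). With a minimum mean of 5 RPKM it drops out and 0 members were lower with sgRNA-FOXF1 (11.4%).

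**Figure D3:**
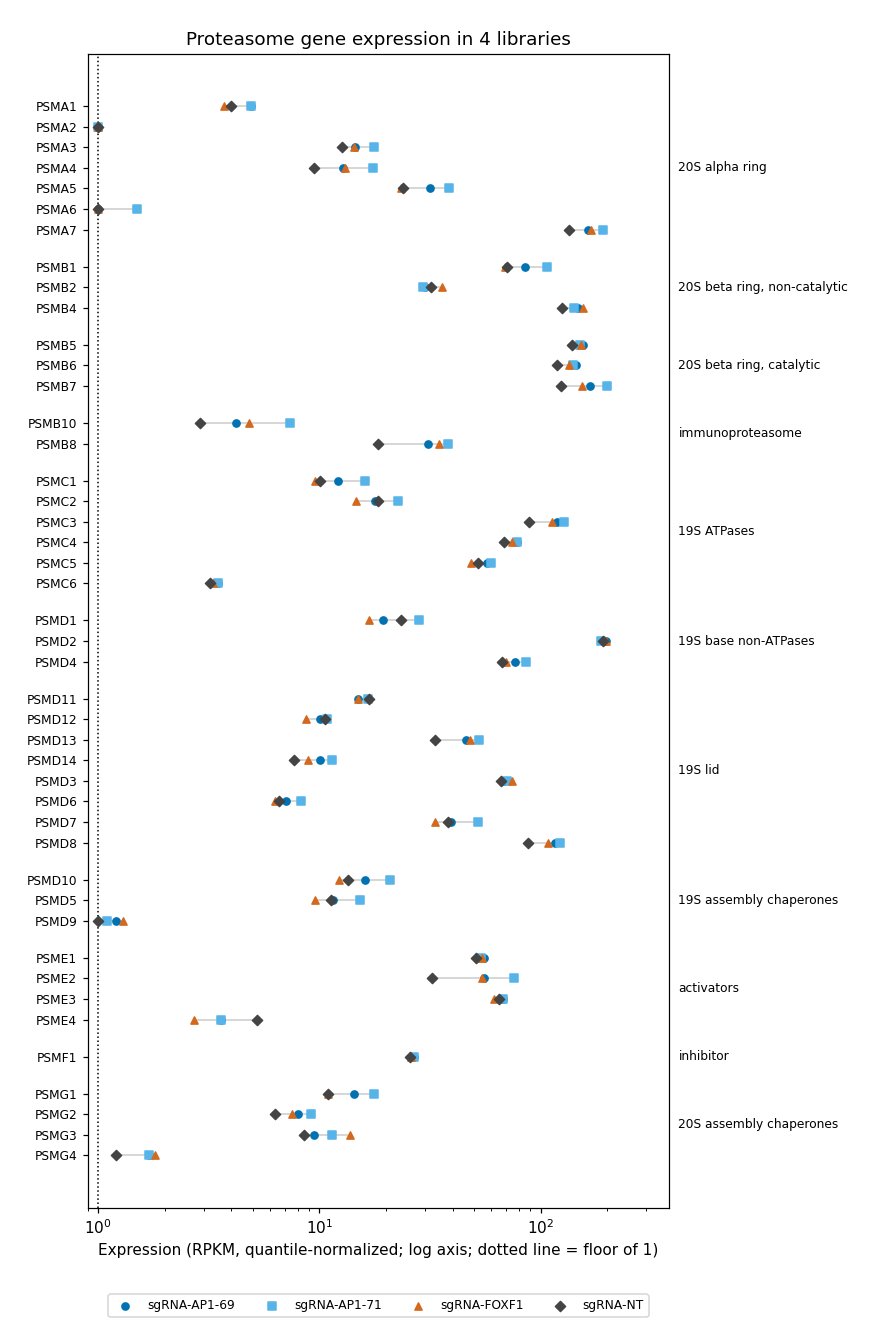
Expression of the 44 proteasome genes in RPKM (log axis) in the libraries of sgRNA-AP1-69, sgRNA-AP1-71, sgRNA-FOXF1 and sgRNA-NT, grouped by role, with 1 symbol per library and a dotted line at the floor of 1. Levels run from 1.0 RPKM (PSMA2) to 200.4 RPKM (PSMB7 with sgRNA-AP1-71), and most genes differ far more from each other than between libraries.

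Levels of a few core subunits were low for genes whose products every proteasome contains. PSMA2 was at the floor of 1.0 RPKM in all libraries, and PSMA6 had 1.0, 1.5 and 1.0 RPKM in the sgRNA-AP1-69, sgRNA-AP1-71 and sgRNA-FOXF1 libraries, against 1.0 with sgRNA-NT. PSMD9, a base chaperone, had 1.2, 1.1 and 1.3 RPKM, against 1.0. In GENCODE v44 on GRCh37, canonical exon bases of these genes are shared with a second coding gene model on the same strand that is named only by an identifier. They are all bases of PSMA2, 81.4% of PSMA6 and 28.8% of PSMD9. The same holds for 67.0% of PSMA1, which had 4.9, 4.9 and 3.7 RPKM, against 4.0, and for 56.1% of PSMB10. Mean levels of the 5 genes with shared exons ran from 1.0 to 4.83 RPKM (median 1.15), beside 1.6 to 193.4 RPKM (median 30.6) for the 39 without. All 3 members at the floor with sgRNA-NT share exons, and so do 5 of the 8 members under a mean of 5 RPKM, the others being PSMC6, PSME4 and PSMG4. A counter that sets aside reads falling on more than one gene would lower such genes, but the counting mode is not given in the sources used here, and the annotation here is later than the authors' version, so the part of shared exons in these levels was not tested. The levels of PSMA1, PSMA2, PSMA6, PSMB10 and PSMD9 are uncertain for that reason.

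Proteasome transcripts are short, and short transcripts had higher ratios throughout these libraries. The median canonical length was 1553.5 nt for the 40 compared members, beside 2902 nt for all compared genes, and 28 of the 40 were shorter than that. The 28 short members had median log2 ratios of 0.26, 0.47 and 0.17 in the sgRNA-AP1-69, sgRNA-AP1-71 and sgRNA-FOXF1 libraries, beside 0.23, 0.26 and 0.23 for all shorter genes. The 12 long members had 0.04, 0.07 and -0.07, beside -0.13, -0.14 and -0.16 for all longer genes. Of the short members 2, 8 and 4 were at least 1.5-fold higher (7.14%, 28.6% and 14.3%), beside 12.6%, 20.8% and 16.5% of the shorter genes. Of the long members 0, 3 and 0 were (0%, 25% and 0%), beside 3.46%, 7.16% and 6.5% of the longer genes. With sgRNA-AP1-71 the members' share was thus above that of all genes in both classes of canonical length. The 3 long members were PSMA4, PSMA5 and PSMC1, and their expressed transcripts may differ in length.

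After correction of the ratios for length over all genes, the median member ratio was 0.0006, 0.16 and -0.09. The counts at least 1.5-fold higher became 0, 6 and 1 of 40, against backgrounds of 5.97%, 11.5% and 10.0%, and 0 were lower with sgRNA-FOXF1 (10.4%). With sgRNA-AP1-71 the 6 were PSMA4, PSMA5, PSMB8, PSMB10, PSMC1 and PSME2, and with sgRNA-FOXF1 it was PSMA4. The corrected log2 ratios of PSMB8 were 0.42, 0.66 and 0.57 and those of PSME2 0.40, 0.80 and 0.38, so that each passed 1.5-fold (0.585 on this scale) only with sgRNA-AP1-71. PSMA4, at 0.56, 1.03 and 0.61, was the highest member in each targeted library on this scale. That rank rests on its canonical length of 4378 nt. PSMA5 (3815 nt) and PSMC1 (4390 nt) were likewise treated as long. Which transcripts were expressed was not examined, and other lengths would change these corrected ratios. PSME4, at 7250 nt among the longest members, was at -0.19, -0.12 and -0.54. The cause of the relation to length was not tested.

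Between the targeted libraries, proteasome genes were mostly higher with the enhancer guides than with sgRNA-FOXF1, a comparison that does not use sgRNA-NT. The sgRNA-FOXF1 value minus the mean of both guides on the log2 scale was below 0 for 34 of 40 members (85.0%), where 53.1% of all compared genes were, and above 0 for 6 (15.0%), where 46.7% were. Its median was -0.20 for the members and -0.03 for all genes. No member differed by 1.5-fold in either direction (backgrounds 5.86% higher and 3.53% lower). The sgRNA-FOXF1 library had the lowest of the 3 targeted values for 28 members (70.0%), beside 41.0% of all genes. For 12 members (30.0%) both guides lay on one side of sgRNA-NT and sgRNA-FOXF1 on the other, beside 13.0% of all genes. For 11 of them (27.5%) the guides were above and sgRNA-FOXF1 below, beside 6.71%. Corrected for GC content, the sgRNA-FOXF1 ratio of most of these 11 was above 0, as given under the flagged results.

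The largest negative differences were those of PSMA5 (-0.58), PSMD10 (-0.58), PSMG1 (-0.55) and PSMC1 (-0.54), and the largest positive one was that of PSMG3 (0.41). Over all genes this difference had a Spearman correlation of 0.60 with GC content, and the members' median GC content was 48.15%, beside 50.57%. Corrected for GC content, the median was -0.13, with 31 members (77.5%) below 0, beside 54.1% of all genes. PSMB8 was nearly equal, with a difference of 0.01. The guides themselves were not alike: 29 of 40 members (72.5%) were higher with sgRNA-AP1-71 than with sgRNA-AP1-69, beside 47.3% of all genes, with a median difference of 0.19 beside 0.00.

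limma was fitted to log2 RPKM of all 7596 genes with both guides as a single group, whose spread was the only one available, so that the lone sgRNA-FOXF1 and sgRNA-NT libraries were assumed to vary like the guides. For the enhancer guides against sgRNA-NT, 0 members and 0 genes (0.0%) had an adjusted p under 0.05 in either direction. Unadjusted, 5 members were higher (PSMB8, PSMC3, PSMD8, PSMD13 and PSME2) and 1 lower (PSME4) at p under 0.05, and 24.3% of all genes passed in either direction. PSMB8 had a log2 difference of 0.90 (SE 0.19) and PSME2 of 1.01 (SE 0.26), each with a limma adjusted p of 0.205. For PSME4 it was -0.53 (SE 0.11) with the same adjusted p of 0.205.

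This outcome depended on 251 genes whose deposited values are equal with both guides. Without them 7 members passed limma at an adjusted p under 0.05, all higher with the guides (PSMA4, PSMA5, PSMB7, PSMB8, PSMB10, PSMD13 and PSME2), beside 9.04% of genes higher and 10.3% lower. PSME4, equal with both guides, was among the 4 members left out of that fit with them. In that fit the log2 difference was 1.01 (SE 0.19) for PSME2 and 0.90 (SE 0.19) for PSMB8. The fit took the spread of each gene from the trend over all genes alone, not from that gene's own 2 guides. The sgRNA-NT group still held 1 library, so its calls are not evidence from replicates. With every gene of the table kept, limma called 1 member, PSMG4 (adjusted p 0.0392), higher with the guides, beside 0.407% of genes. For sgRNA-FOXF1 against the guides, 0 members and 0 genes passed in the fit of all 7596 genes, where 2 members (PSMA1 and PSME4) were lower at an unadjusted p under 0.05, with 9.66% of all genes at such a p. Without the 251 genes 0 members passed, the smallest limma adjusted p being 0.0506 for PSMA5, beside 3.05% of genes higher and 1.58% lower. A p above the threshold does not show that levels were equal.

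Partners of the proteasome that carry other names were described from a list of 12, with 9 compared. POMP, the chaperone that drives closure of the 20S core, had 80.0, 97.1 and 68.2 RPKM in the sgRNA-AP1-69, sgRNA-AP1-71 and sgRNA-FOXF1 libraries, against 52.3 with sgRNA-NT. POMP, PAAF1 and SHFM1 were at least 1.5-fold higher with each enhancer guide (3 of 9) and 0 partners with sgRNA-FOXF1, where 8.08%, 14.0% and 11.5% of all compared genes were. PAAF1 had 4.0, 3.8 and 3.3 RPKM, against 2.5, and rounding to 1 decimal could put it on either side of 1.5-fold with sgRNA-AP1-71. SHFM1 had 5.4, 5.8 and 4.4 RPKM, against 3.4. The ratios of this list were not corrected for transcript length. KIAA0368 and ZFAND5 were at least 1.5-fold lower with sgRNA-AP1-69, none with sgRNA-AP1-71, and these and UBE3C with sgRNA-FOXF1 (backgrounds 9.86%, 14.6% and 13.1%). The median of the list was -0.10, -0.03 and -0.07, below that of the proteasome genes.

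Regulators of proteasome genes were not higher as a list. NFE2L1 (NRF1), which induces proteasome genes when the complex is impaired, had 117.9, 106.9 and 114.6 RPKM in the sgRNA-AP1-69, sgRNA-AP1-71 and sgRNA-FOXF1 libraries, against 134.0 with sgRNA-NT. NFE2L2 (NRF2), the oxidative-stress factor, had 4.1, 3.9 and 3.4 RPKM, against 4.9 with sgRNA-NT. Of the 9 compared regulators, MAFF was at least 1.5-fold higher with sgRNA-AP1-71 (background 14.0%), and MAFK was lower by that much with sgRNA-AP1-71 and sgRNA-FOXF1 (backgrounds 14.6% and 13.1%). Of 12 genes that supply or carry ubiquitin, 0 were at least 1.5-fold higher in any library (backgrounds 8.08%, 14.0% and 11.5%), and 0, 1 and 2 were lower, beside 9.86%, 14.6% and 13.1% of all compared genes.

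The site letters of these regulators were searched in the same start regions. The antioxidant response element core TGACNNNGC, bound by NRF1 and NRF2, was in 13 of the 47 member promoters (27.66%) and in 13.35% of all promoters, on either strand. Its letters can overlap an AP-1 site, TGACTCA, but none of the matches in member promoters contained that site on either strand. Matches upstream of genes at least 1.5-fold higher with sgRNA-AP1-71 are shown with the core in capitals, at chr15:78540650-78540678 (plus), chr14:24146767-24146795 (minus) and chr21:39183616-39183644 (minus) of GRCh38.p14.
PSMA4: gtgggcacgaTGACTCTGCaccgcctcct
PSME2: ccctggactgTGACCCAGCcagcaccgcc
PSMG1: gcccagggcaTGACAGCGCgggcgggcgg
PSMA5, PSMB8, PSMB10, PSMC1, PSMD10 and PSMD13, also at least 1.5-fold higher with sgRNA-AP1-71, held no match, and PSMB1 and PSMB7 had no matched promoter. Among all members with a promoter, 13 of 38 genes held the core. PSME4, the lowest member by ratio uncorrected for length, also held the core, as did PSMD3 and PSME1, which passed 1.5-fold nowhere. The CCAAT box, bound by NF-Y, was in 36.17% of member promoters and 34.61% of all promoters.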

How the data were processed

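Expression was measured by RNA-seq in 4 libraries. Per the study's methods and the labels, the authors aligned 65 bp single reads to hg19 with TopHat2, counted them per gene with HTSeq-count (versions not given in the sources used here), converted counts to RPKM with GENCODE v25 and quantile-normalized the libraries. The deposited RPKM values have 1 decimal and a floor of 1. The authors also deposited log2 ratios to sgRNA-NT, which were not used. The labels and the study's methods name different RNA reagents and library kits, of which only one is stranded. Read counts were not analysed here, so depth is unknown and no counting interval is given.

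Log2 ratios were taken without a pseudocount for genes averaging 2 or more RPKM, and 1.5-fold was counted. Length and GC content were those of GENCODE v44 canonical transcripts on GRCh37, corrected for by cubic splines with 5 knots. limma 3.58.1 (R 4.3.3, Benjamini-Hochberg over all genes, two-sided, with a mean-variance trend) was tested on simulated data. The simulated data held no genes equal in both guides, so that test does not cover a fit that includes the 251 such genes. Python 3.11.15, numpy 2.4.6, pandas 2.3.3, scipy 1.17.1 and matplotlib 3.10.9 were used. Named members were those past 1.5-fold in any library, the catalytic and immunoproteasome subunits, and the highest and lowest of each role. Others named for their difference between sgRNA-FOXF1 and the guides, or for shared exons, and pathway genes other than NFE2L1, NFE2L2 and POMP, were chosen after their values were seen. The members and lists were chosen with earlier results of these data known. Alternatives covered the pseudocount, centring, length, GC content, expression minimum, fold, each guide alone and the limma settings. Those on shared exons and on rounding, and the search for the interferon-stimulated response element, were added after the data were seen.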

Additional observations from a re-analysis of the deposited data

Results flagged for a closer look

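For 12 proteasome genes both enhancer guides lay on one side of sgRNA-NT and sgRNA-FOXF1 on the other (30.0% of 40, beside 13.0% of all 7596 compared genes). The sgRNA-FOXF1 value minus the mean of the guides, on the log2 scale, was -0.41 for PSMA1 (-0.405), -0.58 for PSMA5, -0.47 for PSMB1 (-0.472), -0.54 for PSMC1 and -0.28 for PSMC5 (-0.276). It was -0.29 for PSMD6 (-0.285), -0.44 for PSMD7 (-0.443), -0.58 for PSMD10 (-0.577), -0.47 for PSMD5 (-0.466), -0.14 for PSME3 (-0.145) and -0.55 for PSMG1 (-0.546). PSMB2 was the exception in direction, at 0.27 (0.268), with sgRNA-FOXF1 above sgRNA-NT and both guides below it. The difference itself was tested by limma with sgRNA-FOXF1 as a single library, and none passed, with adjusted p from 0.450 to 0.505 for these genes. Most sgRNA-FOXF1 values were close to sgRNA-NT, for example 10.9 against 11.0 RPKM for PSMG1 and 23.3 against 23.8 RPKM for PSMA5. The side of sgRNA-FOXF1 also depended on GC content. Corrected for it, the log2 ratio to sgRNA-NT was above 0 for PSMA1 (0.134), PSMA5 (0.216), PSMB1 (0.037) and PSMD5 (0.022). The same held for PSMD6 (0.095), PSMD10 (0.128) and PSMG1 (0.221). It stayed below 0 for PSMC1 (-0.026), PSMC5 (-0.204), PSMD7 (-0.034) and PSME3 (-0.005).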

How the results depend on the processing

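No called ratio changed sign under the alternatives run. After correction for transcript length the median log2 ratio of the members became 0.0006 for sgRNA-AP1-69, 0.1625 for sgRNA-AP1-71 and -0.0881 for sgRNA-FOXF1, the members at least 1.5-fold higher 0, 6 and 1, and those lower with sgRNA-FOXF1 0. Counted at 2-fold, 0, 3 and 0 members were higher and 0 were lower with sgRNA-FOXF1. Centring on the median of all genes put PSME4 past 1.5-fold lower with each guide (1 member with sgRNA-AP1-69 and 1 with sgRNA-AP1-71), correction for GC content did so with sgRNA-AP1-71 (1 member), and a mean of at least 5 RPKM removed it (0 lower with sgRNA-FOXF1). limma called 7 members for the enhancer guides without the genes equal in both guides and 1 with every gene kept (PSMG4, equal in both guides), in place of 0. Over both guides the median of the members' mean ratio was 0.26, and 0.20 to 0.39 with either guide alone. The other 65 comparisons of this kind kept their side, within 1.5 times for counts. No paired analysis was possible because the conditions share only replicate number 1 and each lone condition has 1 library. Rounding to 1 decimal limits ratios of members under about 5 RPKM.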
